A study of Mus musculus with 12 samples.

Results

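The return condition (RC) of this series is Min6 cells that were taken out of serum-containing culture into a serum-free, low-oxygen medium and then put back. Its 4 arrays, of 12 in all, were compared with the mean of the classic condition (CC, 4 arrays) and the defined condition (DC, 4 arrays) over all 35556 probe set rows, and the rows described are those whose RC mean lay above or below both other group means. Min6 is a mouse insulinoma line used as a model of the insulin-secreting beta cell, and RNA from cells grown in flasks was hybridised to Affymetrix gene arrays. CC cells stayed in DMEM with 15% fetal calf serum and 2-mercaptoethanol at 20% oxygen throughout. DC cells spent their last 10 days in serum-free DMEM-F12 with apo-transferrin, progesterone, putrescine and selenite at 5% oxygen. RC cells spent 5 days in that serum-free medium at 5% oxygen and the final 5 days back in 15% serum at 20% oxygen. All groups had penicillin-streptomycin and a first period of 5 days in serum. Serum, oxygen, basal medium and supplements changed together, so their parts in a difference cannot be told apart, and RC had spent 5 serum-free days where DC had spent 10. The quadruplicates came from a single experiment, so the p-values measure only the spread between these samples, which may be technical.

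Serum supplies growth factors, hormones and lipids, and low oxygen engages the hypoxia-inducible factors, so a change of both touches lipid synthesis, growth signalling and energy metabolism at once. A gene whose cells are put back into their first medium can regain its first level, stay at the level of the intermediate medium, or reach a level seen in neither. The last pattern is the subject here. In beta cells, insulin release couples glucose oxidation in mitochondria to calcium entry and to granule exocytosis, and several of the genes below act in these steps.

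The values are log2 expression values as deposited, 1 number per row and array, where 1 unit is a doubling. With 4 arrays a group, their number limits the precision. RC 3 stood apart from the other arrays. Its mean correlation with the other RC arrays was 0.976 (the other 3 RC arrays: 0.989 to 0.990), and its interquartile range of 2.42 was the narrowest of the 12 (others 2.44 to 2.75). Its 1210 olfactory and vomeronasal receptor rows, taken here as mostly silent genes, averaged 6.10. They averaged 5.82 to 5.91 on the other RC arrays, 5.77 to 5.90 in CC and 5.89 to 6.01 in DC. The CC arrays fell into 2 pairs. CC 1 and CC 2 had interquartile ranges of 2.73 and 2.75 and medians of 7.93 and 7.92. CC 3 and CC 4 had interquartile ranges of 2.58 and 2.57 and medians of 7.99 each. Counts without either pair are given below. The interquartile range of RC arrays (2.58 ± 0.11, SD, n = 4) did not differ detectably from that of the other 8 (2.60 ± 0.11, SD; p = 0.752, two-sided exact permutation test; p = 0.679 without RC 3, smallest possible p with all arrays 0.00404). Beta cell markers bore out the label: 11 of 12 lay above the median of all values (7.99), and their mean was 11.46 to 11.60 on RC arrays, 11.55 to 11.59 in CC and 11.65 to 11.73 in DC. The 4 markers of other islet cells also all lay above that median, averaging 10.47 to 10.70 in RC, 10.36 to 10.61 in CC and 10.02 to 10.39 in DC. By limma 0 of these 4 were called beyond both (0.354% of all rows were), and 1 lay beyond both at an unadjusted p under 0.05. None of the 9 exocrine and ductal, 8 fibroblast, 5 endothelial and 5 immune markers measured was called beyond both conditions (limma; 0 of them also at an unadjusted p under 0.05), and 3, 4, 0 and 2 of them in that order lay above the median of all values. The exocrine markers averaged 7.23 to 7.55 in RC, 7.21 to 7.35 in CC and 7.27 to 7.51 in DC. In bulk RNA, fewer cells of a type and less RNA per cell cannot be told apart.

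Position alone said little, since the RC mean lay above both other means in 25.6% of rows and below both in 18.9%. With limma's moderated test and Benjamini-Hochberg adjustment over all rows, 157 rows (0.442%) differed between RC and the mean of CC and DC at an adjusted p under 0.05. In 58 of them (0.163% of all rows; 51 genes) RC was above both means and in 68 (0.191%; 60 genes) below both, 126 rows (0.354%) together, while in the other 31 it lay between them. This contrast also calls rows in which DC differed from CC and RC lay at the level of CC or slightly past it. A stricter reading asked that RC differ from CC and from DC each on its own. That held in 14 rows above both (0.0394%) and 24 rows below both (0.0675%), 38 rows in all (0.107%). In all 38 the 4 RC arrays lay outside the range of the other 8. Over all rows they did so in 0.318% on the high side and 0.562% on the low side. The 38 rows were picked by differences between these same arrays, so the selection favoured this and it is no separate support. Against CC alone, 43 rows were higher (0.121%) and 240 lower (0.675%) in RC, and against DC alone 516 higher (1.45%) and 420 lower (1.18%). The 2 tests share the RC arrays and are not independent. A still stricter test, which adjusts the larger of the 2 p-values over all rows, called 3 rows: Slc1a2 and Gpnmb above (0.00562% of rows) and row 10381994, which has no gene symbol, below (0.00281%).

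The counts were larger without RC 3, when 602 rows were called beyond both (1.69% of all rows; 445 above, 1.25%; 157 below, 0.442%) and 84 differed from each condition on its own (59 above, 0.166%; 25 below, 0.0703%). All 58 rows above and 67 of the 68 rows below remained called without it. RC 3 taken alone lay on the same side in all 126. These rows were called with RC 3 among the arrays, so the selection favoured this and it is no separate check. Of the 38 rows, 30 kept both calls without RC 3, and 9 (4 above, 5 below) kept both whichever single array was left out.

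**Figure D1:**
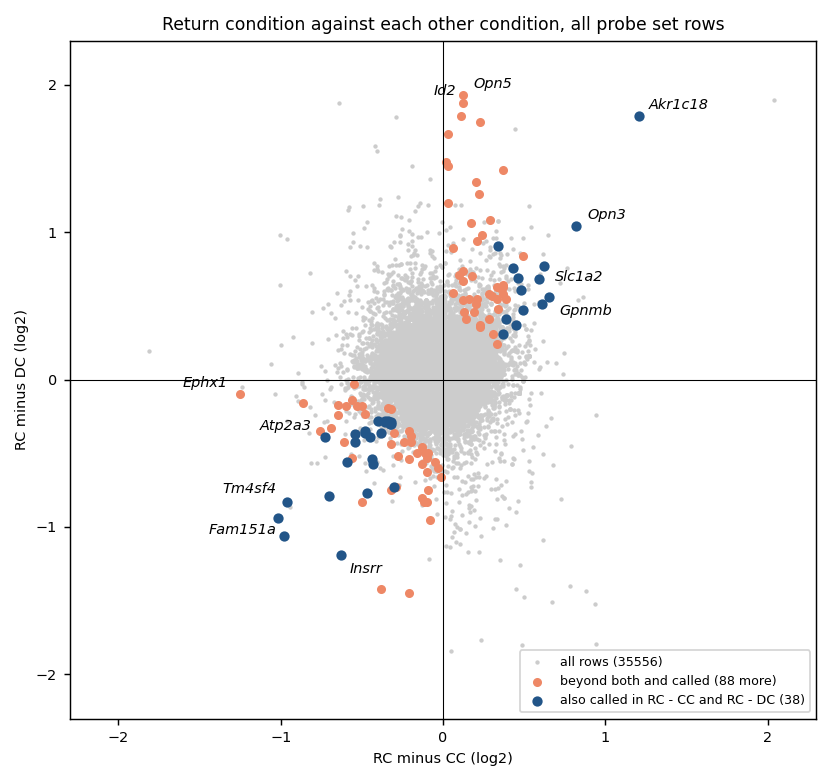
Each point is 1 probe set row, placed by the RC mean minus the CC mean (horizontal axis, log2) and the RC mean minus the DC mean (vertical axis, log2). Blue points are the 38 rows that differed from each condition on its own, orange points the other 88 rows called beyond both, and grey points all 35556 rows; Akr1c18 at 1.21 and 1.79 lies farthest to the upper right among called rows, while Id2 and Opn5 lie along the vertical axis, with RC close to CC.

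The promoters of 4 of the genes that were highest in RC are shown because 2 of them, Opn3 and Chml, share a locus and rose together, and because Akr1c18 and Ppargc1a are among the 4 largest rises named. They are the 250 bases before each gene's RefSeq start (GRCm38.p6), read 5′ to 3′ along the gene's strand: chr1:175692633-175692882, minus strand, for Opn3; chr1:175688354-175688603, minus strand, for Chml; chr13:4150647-4150896, minus strand, for Akr1c18; and chr5:51567726-51567975, minus strand, for Ppargc1a. Capitals mark the GC box GGGCGG, the site known to be bound by Sp1-type factors, on either strand in the first 3, and the core of the cyclic AMP response element, TGACG, on either strand in Ppargc1a.
Opn3: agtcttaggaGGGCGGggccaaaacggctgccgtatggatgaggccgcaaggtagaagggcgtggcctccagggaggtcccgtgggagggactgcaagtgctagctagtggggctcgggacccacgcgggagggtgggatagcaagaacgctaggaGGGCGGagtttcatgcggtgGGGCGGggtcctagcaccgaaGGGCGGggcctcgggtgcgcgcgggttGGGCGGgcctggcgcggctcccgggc
Chml: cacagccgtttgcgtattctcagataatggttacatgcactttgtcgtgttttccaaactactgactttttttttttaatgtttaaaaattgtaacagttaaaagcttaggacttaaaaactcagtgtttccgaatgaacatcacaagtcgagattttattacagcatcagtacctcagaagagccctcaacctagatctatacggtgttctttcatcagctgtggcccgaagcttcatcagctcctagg
Akr1c18: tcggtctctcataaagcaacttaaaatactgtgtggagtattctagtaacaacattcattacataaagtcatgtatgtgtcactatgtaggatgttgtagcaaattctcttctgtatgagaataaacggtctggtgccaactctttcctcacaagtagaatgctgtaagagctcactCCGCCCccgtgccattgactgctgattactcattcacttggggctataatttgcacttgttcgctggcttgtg
Ppargc1a: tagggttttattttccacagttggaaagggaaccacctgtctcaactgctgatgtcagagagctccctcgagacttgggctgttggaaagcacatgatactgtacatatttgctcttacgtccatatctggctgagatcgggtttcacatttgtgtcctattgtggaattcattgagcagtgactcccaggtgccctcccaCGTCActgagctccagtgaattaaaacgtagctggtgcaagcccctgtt

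The Opn3 window held 5 GC boxes, the Akr1c18 window 1 and the Chml window 0, while 32.7% of 32841 RefSeq promoter windows of this length held at least 1. TGACG occurred once in the Ppargc1a window and in 17.8% of all windows. The Opn3 window held 23 CG pairs and the Chml window 7, against a median of 6. Chml lies within Opn3 on the same strand, and their starts are 4279 bases apart. Whether the probes of one read RNA of the other was not tested. Tmem63a and Ephx1 on chromosome 1 (both below both) and Shisal2b and Rgs7bp on chromosome 13 (both above both) were the other adjacent protein-coding pairs among the called genes. A match of letters is a description of the window and not a bound site.

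The larger-p test called 2 genes above both conditions. Slc1a2, which encodes the glutamate transporter GLT-1, read 8.68, 8.79, 8.76 and 8.80 on RC arrays 1 to 4. Its CC arrays read 8.06, 8.11, 8.19 and 8.18 and its DC arrays 8.05, 8.03, 7.89 and 7.98, so every RC array lay above the other 8 with a wide gap. RC exceeded CC 1.54-fold (log2 difference 0.62, SE 0.06, adjusted p = 4.9e-04) and DC 1.71-fold (adjusted p = 2.2e-05), and the adjusted larger p was 0.00248. Gpnmb, a transmembrane glycoprotein of lysosomes and melanosomes, read 8.01, 7.98, 7.97 and 7.97 in RC. It read 7.20, 7.35, 7.42 and 7.35 in the classic condition, and 7.34 to 7.45 in DC. The RC arrays again lay above all others, by 1.57-fold over CC and 1.48-fold over DC (adjusted larger p by limma = 0.00543). Gpnmb falls just under the level that the rule for named genes asked for (7.98 against 7.99) and was named after its values were seen. That rule also asked that no RC array lie within the range of the other 8, so it fixed this nonoverlap for the genes it named. Its level could be met by RC alone, as it was for Akr1c18, Ppargc1a and Rtp4, whose CC and DC means lay under 7.99. Slc1a2 and Gpnmb kept both calls whichever array was left out.

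The 2 steroid and aldehyde reductases of the aldo-keto family that rose were Akr1c18 and Akr1b8. Akr1c18, the 20-alpha-hydroxysteroid dehydrogenase that inactivates progesterone, had the largest rise: 9.32, 8.80, 8.72 and 9.09 in RC, 8.03, 7.84, 7.65 and 7.57 in CC, and 6.79 to 7.73 in DC. Every RC array exceeded every other array. RC stood 2.31-fold over CC (log2 difference 1.21, SE 0.19, adjusted p = 0.015) and 3.47-fold over DC (adjusted p = 2.3e-04). The call against CC was lost without CC 3, CC 4 or RC 1 (adjusted p up to 0.0661). Akr1b8 read 7.22, 7.07, 7.03 and 7.28 in RC, 6.60 to 6.77 in CC and 6.41 to 6.59 in DC. It too did not overlap the other groups (1.40-fold over CC, adjusted p = 0.0126; 1.52-fold over DC), with the call against CC lost without CC 3, CC 4 or RC 1. Of the 24 measured genes of the list of aldo-keto reductases and steroid enzymes, these were the only 2 called beyond both (0.354% of all rows were). The list's median difference was -0.01.

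Opn3, the non-visual opsin called encephalopsin, read 10.65, 10.48, 10.56 and 10.66 in RC, 9.79, 9.81, 9.75 and 9.72 in CC and 9.68, 9.59, 9.89 and 9.04 in DC. Chml, which encodes Rab escort protein 2, the carrier that presents Rab proteins for lipid attachment, read 9.81, 9.90, 9.56 and 9.80 in RC. Its CC arrays read 9.37, 9.50, 9.17 and 9.18 and its DC arrays 9.23, 9.02, 9.05 and 8.99. Both genes were highest on all RC arrays, though for Chml RC 3 lay only slightly above CC 2. Opn3 was 1.77-fold over CC (adjusted p = 0.0229) and 2.05-fold over DC (adjusted p = 0.00136), and Chml 1.38-fold and 1.62-fold (adjusted p = 0.0477 and 0.00166). The calls against CC were fragile: Opn3 lost it without any 1 of CC 1, 2, 3 and 4 and RC 1, 2 and 4 (adjusted p up to 0.0878), and Chml without CC 1, 3 or 4, DC 2, 3 or 4 or RC 1, 2 or 4 (up to 0.171). The contrast with the mean of both conditions held for Opn3 without any single array (adjusted p = 0.00545 with all arrays), and was lost for Chml without RC 1, 2 or 4.

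Energy metabolism was represented by Ppargc1a, the coactivator PGC-1 alpha that drives mitochondrial gene programmes, and Idh3a, the catalytic subunit of the isocitrate dehydrogenase of the citric acid cycle. Ppargc1a read 8.64, 8.45, 8.43 and 8.63 in RC, 7.94, 8.07, 7.96 and 7.80 in CC and 8.01, 7.74, 7.92 and 7.77 in DC. No RC array overlapped the others, RC was 1.51-fold over CC (log2 difference 0.59, SE 0.08, adjusted p = 0.00836) and 1.60-fold over DC (adjusted p = 7.6e-04), and both calls held without any single array. A second row for Ppargc1a differed by 0.66 from the mean of both conditions but was not called (adjusted p = 0.164). Idh3a read 10.72 to 10.87 in RC, 10.20 to 10.57 in CC and 10.04 to 10.40 in DC. It was called against the mean of both (log2 difference 0.47, adjusted p = 0.0262) and against DC, but not against CC (adjusted p = 0.0907), and the first call was lost without CC 3, CC 4, DC 3, RC 1, RC 2 or RC 4. Of 23 measured respiratory chain genes, 16 had their RC mean above both others and 0 below both (25.6% and 18.9% of all rows), with a median difference of 0.10 (all rows 0.01). None was called with all arrays (limma, 0.163% of all rows being called above both). Of them, 4 (Ndufa4, Cox5a, Cox5b and Cox6c) had an unadjusted p under 0.05 (2.91% of all rows did with RC above both). Without RC 3, Ndufa4 was called, 18 of 23 lay above both (27.8% of all rows) and the median was 0.13. With each array centred on its median, 11 lay above both (20.4% of all rows).

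The 14 rows above both also held Itga7, Ngfr, Rab3c and Cited1. Itga7, the alpha subunit of a laminin-binding integrin, read 8.77, 9.04, 8.97 and 8.90 in RC, 8.44 to 8.55 in CC and 8.07 to 8.27 in DC. It was the only 1 of 29 measured matrix and adhesion genes called beyond both (0.354% of all rows were), and Tnc joined it without RC 3. Itga7 was 1.35-fold over CC (limma adjusted p = 0.0179, lost without any CC array or RC 2) and 1.69-fold over DC. Ngfr, the p75 neurotrophin receptor, read 10.38, 10.25, 10.39 and 10.44 in RC, 9.97 to 10.10 in CC and 9.44 to 9.46 in DC. The 3 groups were thus ordered with no overlap, RC being 1.27-fold over CC (adjusted p = 0.0183, lost without CC 2, 3 or 4 or RC 1 or 4) and 1.89-fold over DC. Rab3c, a vesicle-associated Rab protein, and Cited1, a transcriptional coregulator, were 1.40-fold and 1.29-fold over CC and 1.38-fold and 1.24-fold over DC. All RC arrays of Rab3c read 6.99 to 7.40 against 6.66 to 6.88 elsewhere, and those of Cited1 8.79 to 8.98 against 8.40 to 8.67. Rab3c lost at least 1 of its 2 calls without any CC array, DC 2, RC 1, RC 3 or RC 4 (both without RC 1 or RC 4). Cited1 lost at least 1 without any array except DC 1 (both without CC 1, CC 2, CC 3, DC 2, RC 1, RC 2 or RC 4). Ngfr, Rab3c and Cited1 were chosen after their values were seen. The other 3 rows of the 14 were row 10568363 of Armcx3, with a mean of 7.04 in RC against 6.43 in CC and 6.53 in DC, and 2 rows with no symbol. The other rows of Armcx3 were not called beyond both.

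A further group of named rises separated clearly from DC but not, by test, from CC. Hs3st2, a heparan sulfate 3-O-sulfotransferase, read 10.49, 10.46, 10.48 and 10.64 in RC against 9.83 to 10.23 in CC and 9.33 to 9.95 in DC. It was 1.79-fold over DC (adjusted p = 0.00241) and 1.41-fold over CC (adjusted p = 0.101). Shisal2b (8.46 to 8.83 in RC), S100a10 (12.40 to 12.65), the annexin A2 partner p11, the interferon-inducible Rtp4 (7.94 to 8.26) and the neuronal calcium-binding protein Necab2 (9.60 to 9.97) were placed alike. Their RC arrays lay above all other 8, which the naming rule asked for. The difference from the mean of both was 0.47 to 0.51, and the adjusted p against CC by limma was 0.0947 to 0.202. The call of Hs3st2 was lost without CC 3, RC 1, RC 2 or RC 4, that of Shisal2b without RC 1 or RC 4, and those of the other 3 without any 1 of 8 to 10 arrays.

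**Figure D2:**
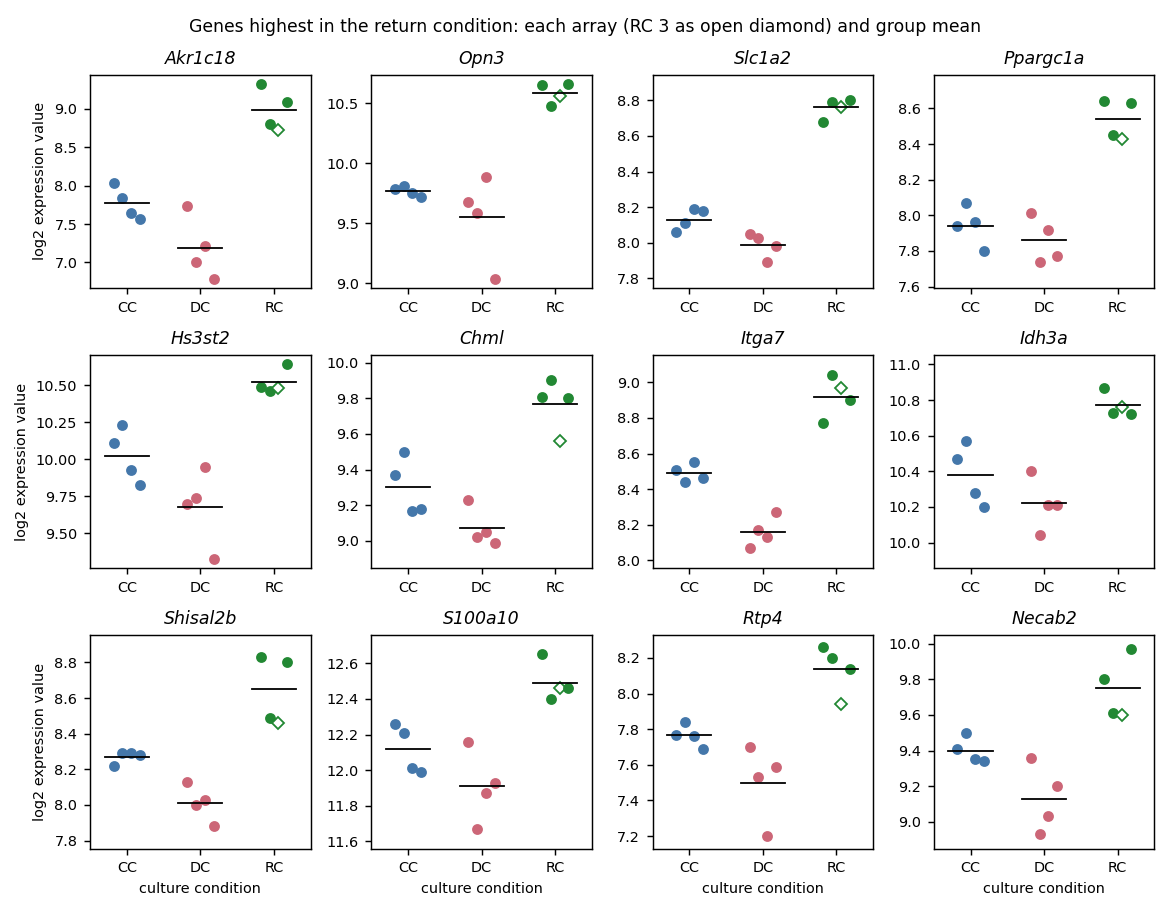
The 12 genes named as highest in RC, with the log2 expression value of each array (vertical axis, scaled per gene) by culture condition, group means as bars and RC 3 as an open diamond. In every panel the 4 RC points lie above all CC and DC points, which the naming rule asked for. The gap is widest in Akr1c18 and narrowest in Chml.

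Among the 24 rows that differed from each condition and lay below both, Fam151a and Tm4sf4 were the named genes furthest below both. The row that fell furthest below both, 10381994, has no gene symbol in the annotation used. It read 9.26, 9.30, 9.28 and 9.40 in RC, 10.14, 10.22, 10.43 and 10.39 in CC and 10.30, 10.25, 10.32 and 10.62 in DC. All RC arrays were far below the other 8 (log2 difference -0.98 from CC and -1.06 from DC, adjusted larger p by limma = 0.00248). Fam151a read 8.12, 8.54, 8.32 and 8.48 in RC, 9.47, 9.26, 9.38 and 9.43 in CC and 9.66, 9.26, 9.36 and 8.94 in DC. CC and DC overlapped each other, while RC was 2.03-fold under CC (log2 difference -1.02, SE 0.13, adjusted p = 0.0058) and 1.92-fold under DC (adjusted p = 0.00209). Tm4sf4, a membrane protein of the tetraspan type, read 9.26, 9.44, 9.27 and 9.42 in RC, 10.20, 10.12, 10.54 and 10.38 in CC and 10.13, 9.92, 10.21 and 10.47 in DC. It too fell under both, 1.94-fold and 1.78-fold (adjusted p = 0.0037 and 0.00195). These 3 rows kept both calls without any single array.

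Of the receptor genes named, Insrr, Vipr1 and Ddr1 were below each condition by test and Gipr was not. Insrr, a receptor tyrosine kinase related to the insulin receptor that senses alkaline pH, read 9.07, 9.05, 8.88 and 9.11 in RC, 9.52, 9.51, 9.76 and 9.82 in CC and 9.98, 10.11, 10.23 and 10.53 in DC. Its mean was higher in DC than in CC (10.21 and 9.65, limma adjusted p = 0.0104). RC stood under CC by 1.54-fold (adjusted p = 0.0311, lost without any 1 CC or RC array) and under DC by 2.27-fold (adjusted p = 1.4e-04). Vipr1, a receptor for the peptides VIP and PACAP, read 9.22, 9.24, 9.22 and 9.33 in RC, 9.72 to 9.95 in CC and 9.64 to 10.07 in DC. Its RC arrays lay below all others, with a log2 difference of -0.59 from CC (adjusted p = 0.0127, lost without CC 3, CC 4 or RC 1) and of -0.56 from DC (adjusted p = 0.00416). A second row of Vipr1 differed by -0.17 and was not called (adjusted p = 0.576). Ddr1, a receptor tyrosine kinase for collagen, read 10.17 to 10.26 in RC, 10.63 to 10.71 in CC and 10.53 to 10.74 in DC. CC and DC were alike in level there (log2 difference -0.06, adjusted p = 0.512), while RC was 1.37-fold and 1.31-fold under them (adjusted p = 0.0058 and 0.00333), with both calls held without any single array. The incretin receptor Gipr read 9.49 to 9.84 in RC, 9.69 to 9.83 in CC and 10.51 to 10.78 in DC, so it lay with CC (adjusted p = 0.775) and 1.93-fold under DC.

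In the list of calcium buffers, pumps and store channels, 1 gene was called below both and 1 above both. Atp2a3, the calcium pump SERCA3 of the endoplasmic reticulum, read 11.17, 11.21, 11.18 and 11.32 in RC, 11.87, 11.98, 11.97 and 11.99 in CC and 11.43, 11.55, 11.66 and 11.82 in DC. DC lay under CC and RC lay under DC, so no groups overlapped. RC was 1.66-fold under CC (log2 difference -0.73, SE 0.08, adjusted p = 0.00185) and 1.31-fold under DC (adjusted p = 0.02, lost without DC 3, RC 1 or RC 2). Trpc4, a calcium-permeable cation channel that is not on that list, read 8.81 to 8.88 in RC against 9.22 to 9.33 in CC and 9.16 to 9.54 in DC (1.36-fold under CC, adjusted p = 0.0228, lost without any CC array or RC 1, 2 or 4; 1.45-fold under DC). Calb1, the cytosolic calcium buffer calbindin, went the other way: it read 9.57, 9.18, 9.02 and 9.51 in RC, 9.05 to 9.43 in CC and 7.28 to 7.63 in DC. It was called above both (log2 difference 0.95 from their mean), yet overlapped CC (adjusted p = 0.801). Of the 21 measured genes of the list, Calb1 and Atp2a3 were the only 2 called beyond both (0.354% of all rows were). The list had 5 means above both and 6 below both (25.6% and 18.9% of all rows), with a median difference of 0.03.

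The other named falls were Cdhr1, a photoreceptor cadherin (9.71 to 10.14 in RC, 10.48 to 10.77 in CC, 10.45 to 11.04 in DC), the kinase gene Map3k15 (9.15 to 9.24, 9.60 to 9.73 and 9.72 to 10.36), Abhd15, known for its part in the insulin control of lipolysis (8.57 to 8.75, 9.13 to 9.19 and 9.15 to 9.66), the thiamine transporter Slc19a2 (8.70 to 8.84, 9.30 to 9.38 and 8.98 to 9.39) and Agap2, a GTPase-activating protein for Arf proteins (8.46 to 8.55, 8.82 to 8.98 and 8.82 to 8.94). Their RC arrays lay below the other 8 in every case, which the naming rule asked for, and RC was 1.30-fold to 1.62-fold under CC. Map3k15 missed the threshold against CC (adjusted p = 0.0539). The calls against CC of Cdhr1 and Abhd15 were lost without any CC array and without RC 1, RC 2 or RC 3 (for Abhd15 also RC 4 or DC 2), that of Agap2 without RC 1, and the call of Slc19a2 against DC without DC 1, DC 3, RC 1, RC 2 or RC 4. Ptprn2, the dense-core granule membrane protein phogrin, chosen after its values were seen, read 11.30 to 11.52 in RC, 11.69 to 11.79 in CC and 11.61 to 11.76 in DC. It was 1.26-fold under CC and 1.21-fold under DC (adjusted p = 0.0311 and 0.0308), and it lost at least 1 of these calls without any CC array, DC 2, 3 or 4 or RC 1 or 2 (both without CC 3, CC 4, RC 1 or RC 2).

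**Figure D3:**
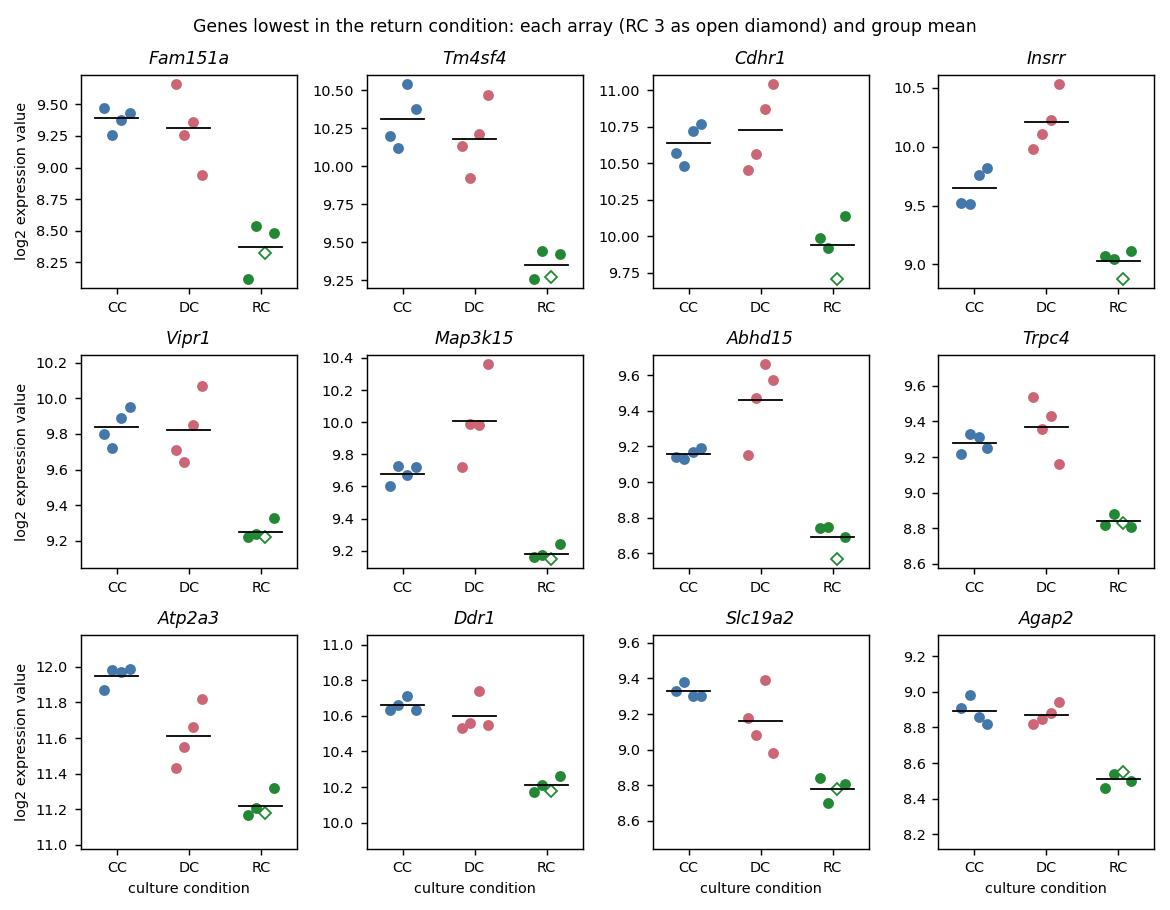
The 12 genes named as lowest in RC, with the log2 expression value of each array (vertical axis, scaled per gene) by culture condition, group means as bars and RC 3 as an open diamond. In every panel the 4 RC points lie below all CC and DC points, which the naming rule asked for. In Fam151a, Ddr1 and Agap2 the CC and DC points overlap, while in Insrr DC lies above CC and in Atp2a3 below it.

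Among the called rows below both were 3 regulators of lipid metabolism. Srebf1, the transcription factor that drives fatty acid synthesis, read 10.61, 10.76, 10.66 and 10.73 in RC, 10.90 to 11.05 in CC and 11.46, 11.39, 11.48 and 11.36 in DC. The 3 groups did not overlap: DC was the highest, and RC was 1.23-fold under CC (adjusted p = 0.0367) and 1.66-fold under DC (adjusted p = 3.3e-05). The call against CC was lost without any 1 CC or RC array or DC 2. Srebf2, the regulator of cholesterol synthesis, read 10.52 to 10.62 in RC, 10.56 to 10.64 in CC and 11.02 to 11.26 in DC, and the cholesterol exporter Abca1 8.32 to 8.39, 8.41 to 8.54 and 8.93 to 9.43. Neither differed detectably from CC (log2 difference -0.03 and -0.13, adjusted p = 0.897 and 0.729). Of 20 measured cholesterol genes Srebf2 alone was called beyond both (0.354% of all rows were). Of their means, 6 lay below both and 0 above (18.9% and 25.6% of all rows). The list's median was 0.08 against CC and -0.61 against DC. Of 20 measured fatty acid genes Srebf1 alone was called, with 7 means below both and 1 above; the medians were 0.03 and -0.25.

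Most of the remaining calls were genes that did not differ detectably from CC. Of the 58 rows above both, 43 differed from DC but not from CC, and of the 68 below both, 29. The 3 Id genes, inhibitors of basic helix-loop-helix factors that BMP signals induce, are examples. Id2 read 11.40, 10.97, 11.02 and 11.20 in RC, 11.29, 11.18, 10.86 and 10.79 in CC and 9.36, 9.10, 9.42 and 9.19 in DC. The ranges of RC and CC overlapped (log2 difference 0.12, adjusted p = 0.792), and RC stood 3.68-fold over DC. Id1 (0.03 over CC) and Id3 (0.17 over CC) likewise overlapped CC, and Id1 lay above both means in only 10 of the 12 fits that left out 1 array. Opn5, the opsin called neuropsin, read 11.04 to 11.44 in RC, 11.08 to 11.26 in CC and 9.06 to 9.63 in DC, a 3.82-fold rise over DC with no detectable difference from CC (adjusted p = 0.79). Opn5 was named after its values were seen. The call against the mean of both conditions held without any single array for Id2, Opn5, Calb1 and Srebf1. It was lost without RC 1 for Gipr, without RC 1 or RC 2 for Sytl4, without CC 4, RC 1, RC 2 or RC 4 for Id1, and without CC 3, CC 4, RC 1, RC 2 or RC 4 for Abca1. Id3, Socs2, Srebf2, Bcl6, Per3, Jun, Selenop and Trp53inp1 lost it without RC 1, RC 2 or RC 4 and without any 1 of 3 to 7 of the CC and DC arrays.

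Socs2, the feedback inhibitor of growth hormone and prolactin signalling, had 2 rows called above both. The brighter of them read 8.24, 8.25, 8.44 and 8.24 in RC, 7.99 to 8.18 in CC and 7.80 to 7.90 in DC, 1.37-fold over DC but not called against CC (adjusted p = 0.318). The other row had means of 8.30 in RC, 8.07 in CC and 6.55 in DC, a larger log2 difference of 1.75 from DC (adjusted p = 1.2e-04), and was not called against CC either (adjusted p = 0.74). Akr1c18, which prolactin signals are known to repress in the ovary, belongs to the same list. It holds 25 measured genes of STAT5 and of the prolactin or growth hormone response. In that list Socs2 and Akr1c18 were called above both (0.163% of all rows were) and Bcl6 below both (0.191%). Without RC 3, Tph1 was also called above both, as 1.25% of all rows were. The list had 7 means above both and 6 below (25.6% and 18.9% of all rows). Bcl6, a transcriptional repressor, read 7.80 to 8.05 in RC, 7.93 to 8.06 in CC and 8.40 to 8.73 in DC, and so lay with CC (adjusted p = 0.754). Sytl4, the granule-docking protein granuphilin, and the clock gene Per3 were likewise called below both with a log2 difference of -0.10 from CC each.

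A smaller set lay near DC. Of the 68 rows below both, 15 differed from CC and not from DC. Selenop, the plasma selenium carrier, read 9.15, 8.89, 8.98 and 9.10 in RC, 9.90, 9.70, 10.05 and 9.90 in CC and 9.04, 9.03, 9.37 and 9.33 in DC. RC overlapped DC (adjusted p = 0.632) and was 1.81-fold under CC (adjusted p = 0.00303). Jun, a subunit of the AP-1 transcription factor, read 9.74 to 9.77 in RC, 10.25 to 10.36 in CC and 9.71 to 10.08 in DC. Trp53inp1, a p53 target, read 9.34 to 9.62, 10.17 to 10.39 and 9.51 to 10.18. Both were under CC (1.45-fold and 1.69-fold, adjusted p = 0.00836 and 0.0179), and neither differed detectably from DC. Of 20 measured p53 targets and cell cycle inhibitors, 10 means lay below both and 1 above (18.9% and 25.6% of all rows), with a median of -0.14 (all rows 0.01). Of the 20, 5 were called lower than CC (0.675% of all rows). In the contrast with both conditions, 8 below both had an unadjusted p under 0.05 (3.07% of all rows). Only Trp53inp1 was called beyond both (0.354% of all rows were), and its call against CC was lost without CC 1, 2 or 3 or RC 1 or 2.

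Beta cell genes as a list lay slightly low in RC. Of 29 measured, 19 had their RC mean below both others and 0 above both, against 18.9% and 25.6% of all rows, with a median difference of -0.11 (all rows 0.01). Only Gipr and Sytl4 were called (limma, 0.191% of all rows being called below both), and neither was called against CC. In the contrast, 10 members below both had an unadjusted p under 0.05 (3.07% of all rows did). Without RC 3, 18 lay below both (29.6% of all rows) and the median was -0.08. Across the rescaled and reduced sets of arrays 16 to 20 lay below both, against 26.9% to 41.1% of all rows. Highly expressed rows in general lay below both more often than dim ones: 24.8% in the brightest of 5 equal classes of rows against 16.5% in the dimmest, a contrast that turned round without RC 3 (19.7% and 33.5%). Ins2, an insulin gene, read 13.05, 13.03, 12.94 and 13.04 in RC, 12.98 to 13.07 in CC and 13.01 to 13.10 in DC, a difference of -0.02 (SE 0.04) from their mean. Hes3, a repressor of the Hes family, lay below the median of all values in every group, with 7.26 to 7.62 in RC, 7.09 to 7.36 in CC and 7.17 to 7.50 in DC, and was not called (log2 difference 0.07, SE 0.09).

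Other lists gave few or no calls. Over all rows, the RC mean lay above both in 25.6% and below both in 18.9%. The shares with an unadjusted p under 0.05 as well were 2.91% and 3.07%, and the shares called were 0.163% and 0.191%. Of 33 measured hypoxia genes, 0 were called beyond both (limma; 4 below both at an unadjusted p under 0.05), and the list's median was 0.19 over CC and -0.80 under DC, so RC lay much nearer to CC. Of 22 measured ATF4 and amino acid genes, 11 means lay below both and 1 above, with a median of -0.05 and 0 calls (4 at an unadjusted p under 0.05, all below). Nucleolar ribosome biogenesis genes had 13 of 28 means above both and 3 below (median 0.07, 0 calls, 2 at an unadjusted p under 0.05). When arrays were centred on their medians, 6 lay above both (20.4% of all rows). The 13 measured cytosolic heat shock genes had 7 means above both and 1 below, with 0 calls and 0 at an unadjusted p under 0.05.

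**Figure D4:**
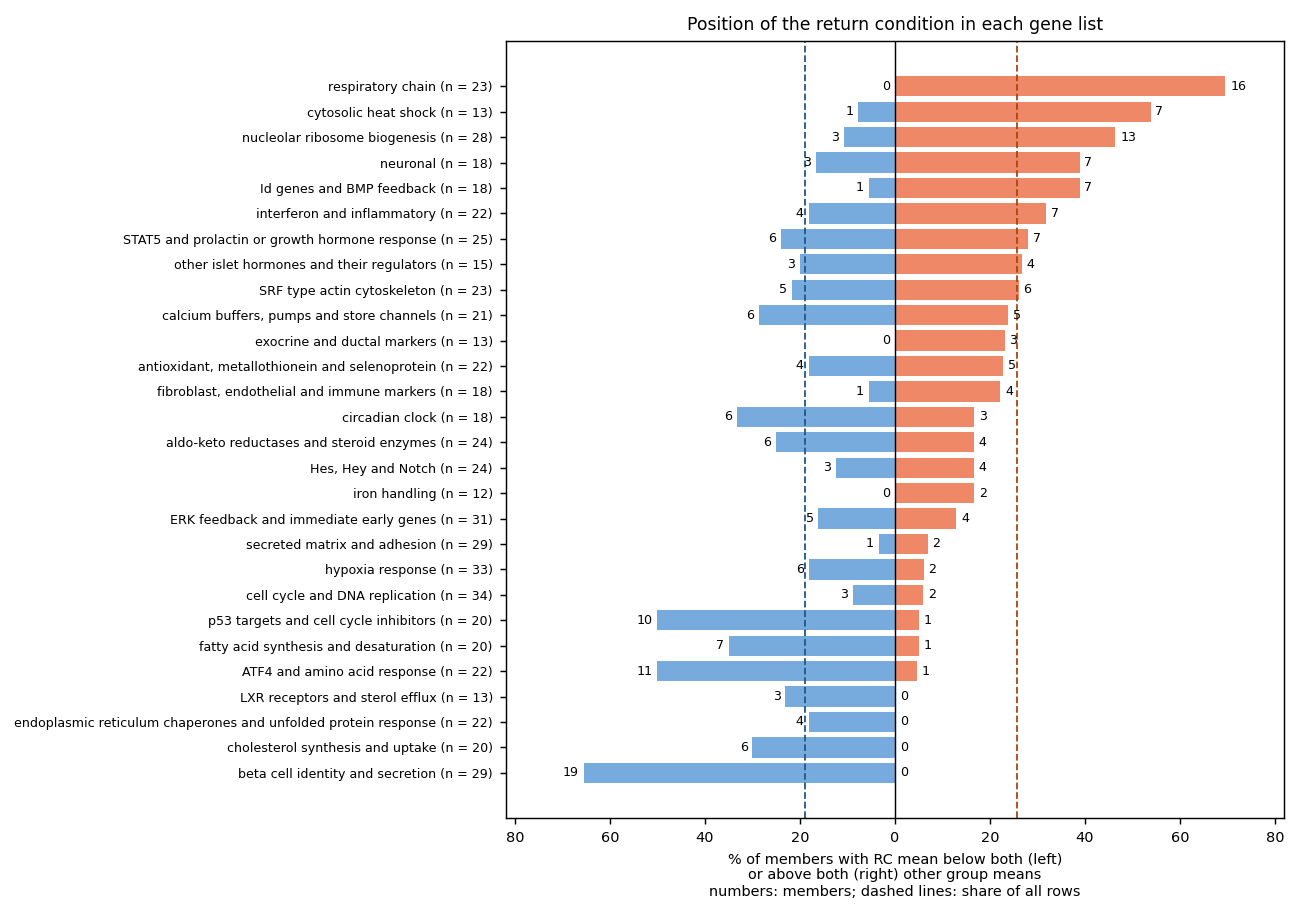
For each of the 28 gene lists, the percentage of measured members whose RC mean lay above both other group means (right, orange) or below both (left, blue), with the number of members at the bar end. Dashed lines mark the same shares over all rows (25.6% and 18.9%); beta cell genes reach farthest to the left with 19 of 29 and respiratory chain genes farthest to the right with 16 of 23.

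At the threshold, the last rows inside were Tkt and Prom1, both below both (adjusted p = 0.0496), and the first outside were Sst above both (adjusted p = 0.051) and Kcnb2 below both (adjusted p = 0.0516). Sst, which encodes the islet hormone somatostatin, read 12.36, 12.03, 12.39 and 12.22 in RC, 11.81 ± 0.19 in CC and 10.55 ± 0.63 in DC (SD, n = 4 each), above all others. The row whose RC mean lay farthest above both others, 10582549, has no symbol and was not called: it read 13.30 to 13.71 in RC, 11.34 to 11.72 in CC, and in DC 12.45, 12.45, 12.55 and, on DC 4, 9.17 (adjusted p = 0.168).

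**Figure D5:**
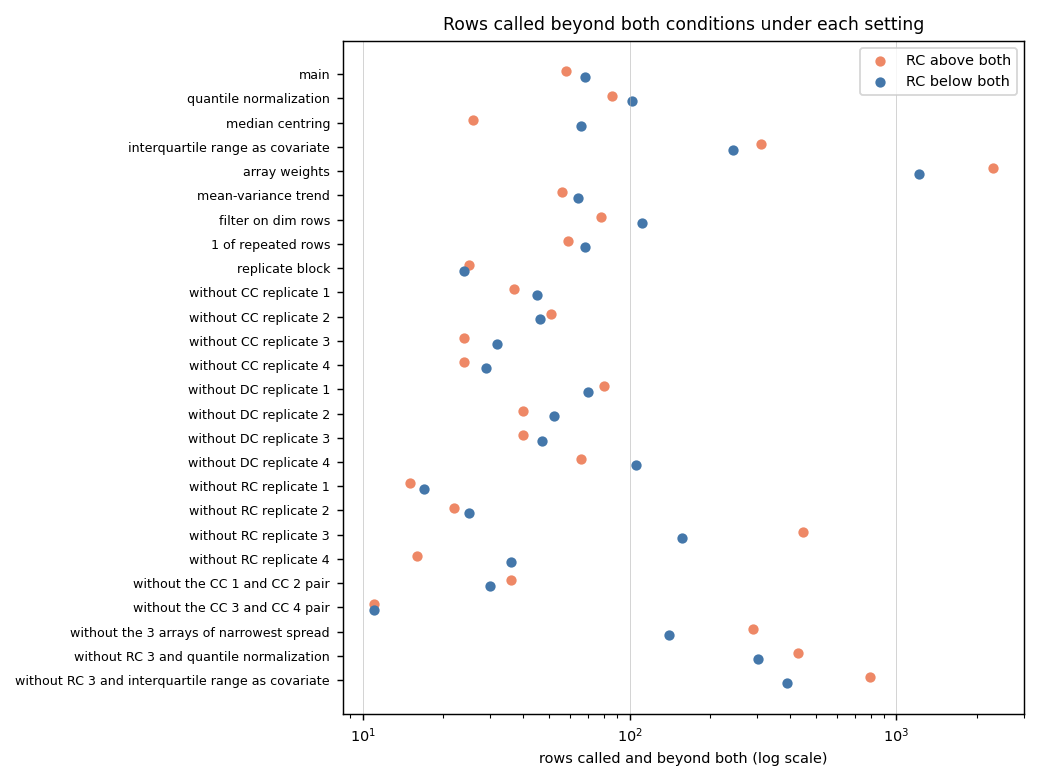
Number of rows called beyond both (horizontal axis, log scale) with the RC mean above (orange) or below (blue) both other means, for the analysis as reported and each alternative. The reported counts are 58 and 68; leaving out RC 3 gives 445 and 157, while leaving out RC 1 gives 15 and 17.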

How the data were processed

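RNA from 12 Min6 cultures (3 conditions, 4 arrays each) was labelled with biotin and hybridised to GeneChip arrays, per the labels' protocols. The deposited values are log2 expression values per probe set, from 3.69 to 14.47; for the software, background correction, normalization and genome build, none is given in the sources used here. Groups and replicate numbers came from the sample titles, and every column was mapped. Of 35556 rows, 21789 carry 1 gene symbol, 1621 several and 12146 none; 21698 were matched to RefSeq (GRCm38.p6). Sequences are RefSeq's.

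All 12 arrays were fitted in limma 3.58.1 (R 4.3.3) with 1 mean per group and no covariate, testing RC minus the mean of CC and DC, RC minus CC and RC minus DC, two-sided. The Benjamini-Hochberg adjustment ran over all 35556 rows, and adjusted p-values under 0.05 were called; for the larger-p test a row whose differences disagreed in direction had a p of 1. No row was filtered out, and the scripts were tested on simulated data. The probe set of highest mean stood for a gene in the 28 lists (645 genes). Named genes are, in each direction, the 12 called rows with 1 symbol, a highest group mean above the median of all values and no RC array within the range of the other 8, ranked by the smaller of the differences from CC and DC. The level could be met by RC alone, as it was for Akr1c18, Ppargc1a and Rtp4. Predicted genes, clones, small RNAs and olfactory or vomeronasal receptors were left out. Up to 4 called genes of each list, Hes3 and Ins2 were added. The members and lists were chosen with earlier results of these data known. The replicate numbers were checked as pairs: over 12 same-numbered pairs, deviations from the group means correlated by -0.36 to 0.47, over 0.1 in 5. Pairs of different number correlated by -0.45 to 0.53, so this check cannot tell whether same-numbered arrays share more than a number.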

Additional observations from a re-analysis of the deposited data

Results flagged for a closer look

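In 165 groups of 4 arrays (the 3 groups of each named gene, of the interquartile range and of the mean of olfactory and vomeronasal receptor rows), 7 held an array whose gap to its nearest neighbour took up more of the group's range than Dixon's critical value at 95% confidence; chance alone flags about 5% of groups. In RC, RC 4 was the highest for Hs3st2 (gap ratio 0.849; 10.64 against 10.46 to 10.49), RC 2 the lowest for Id1 (0.903; 9.67 against 9.84 to 9.86), RC 3 the highest for Socs2 (0.934; 8.44 against 8.24 to 8.25) and RC 3 the lowest for Trp53inp1 (0.951; 9.34 against 9.61 to 9.62). In DC, DC 3 was the highest for Ddr1 (0.834; 10.74 against 10.53 to 10.56) and the lowest for Akr1b8 (0.9; 6.41 against 6.57 to 6.59), and DC 2 was the lowest for Calb1 (0.873; 7.28 against 7.59 to 7.63). Without RC 3 the difference from the mean of both conditions stayed called for Socs2 (0.27) and for Trp53inp1 (-0.49, adjusted p = 0.0499 by limma).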

How the results depend on the processing

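The number of calls depended on single arrays and on how array spread was treated. Rows called in the contrast numbered 157 and rows beyond both 126; rows called against each condition numbered 38 and rows called by the larger p 3. In that order, the counts were 630, 557, 113 and 6 with a covariate for the interquartile range, 3833, 3526, 777 and 73 with array weights, 70, 66, 5 and 1 without CC 1 and CC 2, and 29, 22, 4 and 0 without CC 3 and CC 4. They were 512, 431, 109 and 8 without the 3 arrays of narrowest spread. Leaving out 1 array gave 37 to 668, 32 to 602, 10 to 84 and 3 to 10. For rows beyond both, the counts furthest off were 82, 56 and 53 when CC 1, 3 or 4 was dropped, and 32, 47, 602 and 52 when RC 1, 2, 3 or 4 was dropped. For rows called against each condition, they were 20, 22, 13 and 14 when CC 1, 2, 3 or 4 was dropped, and 10, 19, 84 and 22 when RC 1, 2, 3 or 4 was dropped. The larger p called 7 rows without DC 1, 7 without DC 4 and 5 after a filter on dim rows. Alternatives chosen after seeing the data gave 821, 732, 119 and 7 without RC 3 after quantile normalization, and 1286, 1184, 249 and 17 without RC 3 with a covariate for the interquartile range. The count against each condition was itself added after seeing the data. The cause of these shifts was not tested.

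With the replicate number as a block, the counts were 59, 49, 17 and 1, and 47 of the 49 rows beyond both were among the 126. Rows above and below both numbered 26 and 66 with arrays centred on their medians, 312 and 245 with a covariate for the interquartile range, 2307 and 1219 with array weights, 445 and 157 without RC 3, and 428 and 304 without RC 3 after quantile normalization, against 58 and 68. No named called gene changed sign under any alternative. The uncalled Hes3 turned to -0.04 with array weights and -0.01 without RC 3 (-0.01 to 0.11 over single arrays left out). The uncalled Ins2 turned to 0.00 without RC 3 (-0.04 to 0.00 over single arrays left out), without the 3 arrays of narrowest spread, and without RC 3 with a covariate for the interquartile range. Signal over background is not given in the values used here, so the limit it sets on dim rows is unknown.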

Other observations

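Some genes reached the threshold only once RC 3 was left out, and the array's own value is given beside the other 3. Dnajc13, an endosomal DnaJ protein, read 9.22 to 9.33 on RC 1, 2 and 4 and 7.95 on RC 3, with means of 8.76 in CC and 8.71 in DC (log2 difference 0.53 without RC 3, SE 0.06, limma adjusted p = 0.00232; 0.20 and adjusted p = 1 with it). Its second row did the same (9.01 to 9.07, and 8.18 on RC 3). Cep192, a centrosome protein, read 9.15 to 9.29 and 8.10 on RC 3 (adjusted p = 0.0264 without it). In both genes RC 3 lay below the means of CC and DC. The 2 rows of Scn2a, a voltage-gated sodium channel, read 9.81 to 10.03 and 9.83 to 10.04, with 9.39 and 9.52 on RC 3 (adjusted p = 0.0201 and 0.0272). Tfrc, the transferrin receptor, read 10.89 to 11.18 and 10.71 on RC 3, against means of 10.60 in CC and 10.46 in DC (adjusted p = 0.0362 without it, 0.146 with it). Serpina3n, an acute-phase protease inhibitor, read 12.39 to 12.48 and 12.09 on RC 3 (adjusted p = 0.0316 and 0.119).

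On the low side, several rows lay just outside the threshold with all arrays and inside it without RC 3. Syt1, the calcium sensor of vesicle fusion, had a mean of 8.99 in both CC and DC and 8.64 in RC with or without RC 3 (adjusted p = 0.0579 and 0.0493). Pla2g15, a lysosomal phospholipase, read 8.88 to 9.02 and 9.07 on RC 3, against means of 9.35 and 9.33 (adjusted p = 0.0551 and 0.0338). Cacna1h, a T-type calcium channel, read 7.95 to 8.20 and 8.36 on RC 3, against 8.39 in CC and 8.64 in DC (adjusted p = 0.0616 and 0.014). These genes were chosen after their values were seen.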
